A study of Mus musculus with 6 samples.

Results

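Rab GTPases are small membrane-bound switches. In the GTP-bound form each Rab recruits effectors to the membrane of its own compartment, where they sort, move, tether and fuse vesicles. Exchange factors load GTP, GTPase-activating proteins turn the switch off, and prenylation anchors the protein in the membrane. Podocytes, the epithelial cells that wrap the glomerular capillaries, depend on this traffic to place nephrin at the slit diaphragm and to take it up and recycle it. FOXC2 is a forkhead transcription factor of podocytes, and the data give its binding sites near the genes of this family.

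The family was taken as all protein-coding genes of GENCODE M21 with a symbol made of Rab, a number and at most 2 lower-case letters. The rule found 61 genes of 21951, and 59 of them encode a Rab GTPase. The other 2 carry the name only: *Rab3ip* encodes a Rab exchange factor that binds RAB3, and *Rab5if* encodes a RAB5-interacting factor. Peaks that reached into the 10 kb to either side of the gene start on GRCm38 were assigned to that gene, and no peak fell to more than 1 Rab gene.

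FOXC2 ChIP-seq was done on podocytes sorted by FACS from adult male mice with the mT/mG reporter and a Cre transgene active in podocytes, so the cells studied are those in which Cre had switched the reporter. All mice of both groups carried these alleles on a mixed background, with littermates compared. The ADR group received adriamycin, a podocyte toxin, at 18 mg/kg by retro-orbital injection on days 0 and 7, the PBS group received PBS instead, and podocytes were collected on day 9. Each group had 3 samples, which the authors pooled into 1 peak list per condition, with 41075 peaks for PBS and 40067 for ADR.

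With 1 pooled list a condition there is no replicate spread, and no PBS to ADR difference could be tested. The fold of a peak is the authors' enrichment over the local control of its own list, so PBS and ADR folds of a site stand side by side on scales that may differ. The read depth behind the lists is unknown. Peaks that shared at least 1 bp were joined into a site, and the strongest peak of each list gave the site's fold. The 95% Wilson intervals of shares cover counting error only, and neighbouring peaks are not independent. As a check of the label, all 9 podocyte markers reported here had a peak in both lists, and the ADR list had more peaks at 3 of them, fewer at 2 and the same number at 4. None of the 5 distal tubule and collecting duct markers had a peak in either list, while endothelial markers had peaks at 2 of 6 genes and immune markers at 1 of 4 in each list. Mesangial markers had a peak at 4 of 4 genes in PBS and 2 of 4 in ADR, and proximal tubule markers at 2 and 3 of 5. A peak is no measure of expression, and the part of other cells in these lists was not tested.

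Sequences of the sites on which the results turn come first. Each is the reference strand of GRCm38, 201 bases centred on a summit, taken from the RefSeq copy of that build, with letters in capitals where a motif matched on either strand. The forkhead strings, the class of sequence that FOXC2 binds, were the 8 strings of 7 bases made of A or G, then C or T, then AAA, then C or T, then A, such as GTAAACA. The WT1 strings were GNGGGGGAG, GNGGGGGCG, GNGTGGGAG and GNGTGGGCG, the TEAD strings ACATTCCA, ACATTCCT, GCATTCCA and GCATTCCT, the LMX1B string TTAATTA, and the AP-1 strings TGACTCA and TGAGTCA, which are the same site read on opposite strands. The strings of different factors can overlap. Within 100 bp of the summit, the forkhead strings occurred in 13.0% of all PBS peaks and 15.2% of all ADR peaks near coding genes, and the WT1 strings in 29.8% and 30.9%. A match describes the letters and is not evidence of which protein was bound.

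The 5 sites of the *Rab3b* intron are shown because the ADR fold exceeded the PBS fold at each of them. They lie on chromosome 4 at chr4:108882574-108882774, chr4:108894924-108895124, chr4:108902478-108902678, chr4:108904101-108904301 and chr4:108905955-108906155, in this order. The capitals mark a TEAD match in the first, 2 forkhead matches in the second, no match in the third, 2 WT1 matches in the fourth, and adjoining AP-1 and forkhead matches in the fifth.
Rab3b intron, 3611 bp from the start: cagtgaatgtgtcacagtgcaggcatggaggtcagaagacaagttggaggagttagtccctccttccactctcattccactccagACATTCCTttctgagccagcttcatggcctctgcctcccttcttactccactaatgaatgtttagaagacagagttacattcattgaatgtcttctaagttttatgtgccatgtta
Rab3b intron, 15961 bp: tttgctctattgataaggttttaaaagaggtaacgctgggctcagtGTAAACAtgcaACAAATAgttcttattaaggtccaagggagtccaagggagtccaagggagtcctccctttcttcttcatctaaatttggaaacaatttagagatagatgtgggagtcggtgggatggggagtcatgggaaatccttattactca
Rab3b intron, 23515 bp: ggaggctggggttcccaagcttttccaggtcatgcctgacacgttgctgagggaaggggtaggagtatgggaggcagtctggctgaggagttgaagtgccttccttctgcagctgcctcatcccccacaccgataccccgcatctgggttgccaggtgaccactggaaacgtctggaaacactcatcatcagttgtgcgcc
Rab3b intron, 25138 bp: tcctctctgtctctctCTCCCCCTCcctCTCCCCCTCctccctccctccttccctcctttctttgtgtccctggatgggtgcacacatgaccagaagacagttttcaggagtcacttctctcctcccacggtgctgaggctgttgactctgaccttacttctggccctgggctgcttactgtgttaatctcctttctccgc
Rab3b intron, 26992 bp: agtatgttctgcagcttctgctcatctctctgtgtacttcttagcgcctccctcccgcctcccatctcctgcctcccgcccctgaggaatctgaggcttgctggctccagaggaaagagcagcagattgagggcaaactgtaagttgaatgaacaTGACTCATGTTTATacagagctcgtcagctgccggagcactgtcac

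The next sites were strong in the PBS list and lower in the ADR list. They are the *Rab3a* upstream sites at chr8:70753283-70753483 and chr8:70752439-70752639, both intergenic with a forkhead match, the *Rab20* intron at chr8:11476726-11476926 with a WT1 match, the *Rab4a* promoter at chr8:123805733-123805933 with a WT1 match, the *Rab32* intron at chr10:10546732-10546932 with a forkhead and 2 WT1 matches, and the intergenic site upstream of *Rab2a* at chr4:8510345-8510545 with a WT1 and a TEAD match.
Rab3a, 1296 bp upstream: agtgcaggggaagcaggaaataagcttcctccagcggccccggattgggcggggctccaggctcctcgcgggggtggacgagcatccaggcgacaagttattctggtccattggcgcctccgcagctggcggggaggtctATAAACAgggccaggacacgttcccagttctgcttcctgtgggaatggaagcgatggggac
Rab3a, 2140 bp upstream: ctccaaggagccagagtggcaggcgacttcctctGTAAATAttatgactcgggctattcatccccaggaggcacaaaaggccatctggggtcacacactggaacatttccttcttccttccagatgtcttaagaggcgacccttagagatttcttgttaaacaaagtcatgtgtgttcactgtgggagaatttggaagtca
Rab20 intron: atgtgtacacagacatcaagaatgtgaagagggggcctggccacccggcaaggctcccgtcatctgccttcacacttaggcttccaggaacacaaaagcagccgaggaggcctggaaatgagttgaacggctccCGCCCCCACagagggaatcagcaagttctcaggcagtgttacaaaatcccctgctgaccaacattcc
Rab4a promoter: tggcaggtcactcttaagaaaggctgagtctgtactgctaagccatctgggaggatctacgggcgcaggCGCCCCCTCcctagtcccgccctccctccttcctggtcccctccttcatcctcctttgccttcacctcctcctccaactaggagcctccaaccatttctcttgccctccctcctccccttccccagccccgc
Rab32 intron: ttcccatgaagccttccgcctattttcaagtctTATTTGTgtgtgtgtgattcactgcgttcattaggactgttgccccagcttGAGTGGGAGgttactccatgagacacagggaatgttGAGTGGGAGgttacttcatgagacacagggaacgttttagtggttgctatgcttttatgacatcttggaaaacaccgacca
Rab2a, 25199 bp upstream: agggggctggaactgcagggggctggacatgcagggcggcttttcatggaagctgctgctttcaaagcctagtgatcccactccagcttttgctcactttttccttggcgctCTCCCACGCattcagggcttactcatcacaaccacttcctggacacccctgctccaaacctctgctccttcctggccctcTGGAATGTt

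The *Rab10* promoter at chr12:3310048-3310248 and the *Rab11b* intron at chr17:33757264-33757464 are shown as strong sites that had a higher fold in the ADR list. Each holds 2 WT1 matches.
Rab10 promoter: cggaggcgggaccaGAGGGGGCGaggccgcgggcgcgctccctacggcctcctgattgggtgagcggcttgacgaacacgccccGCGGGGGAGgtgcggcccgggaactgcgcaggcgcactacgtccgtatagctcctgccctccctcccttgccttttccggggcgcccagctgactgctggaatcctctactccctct
Rab11b intron: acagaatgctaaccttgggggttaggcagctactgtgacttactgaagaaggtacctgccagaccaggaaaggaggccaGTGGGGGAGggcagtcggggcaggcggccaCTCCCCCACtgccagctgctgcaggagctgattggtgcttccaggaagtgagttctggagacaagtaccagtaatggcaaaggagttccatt

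FOXC2 peaks lay near most Rab genes in both conditions. A peak was found within 10 kb of the start of 52 of 61 genes of the PBS list, or 85.2% (Wilson interval 74.3 to 92.0%), against 58.8% of all coding genes. The ADR list also gave 52 of 61, against 55.8% of all coding genes, and 51 genes had a peak in both lists, against 53.1%. The exceptions were *Rab15*, a Rab of receptor recycling with its single peak in the PBS list, and *Rab1b*, a Rab of transport from the endoplasmic reticulum (ER) to the Golgi with its single peak in the ADR list. Both peaks were weak, at folds of 5.75 and 3.34. When any annotated transcript start was used, *Rab1b* had 1 peak in each list, at folds of 8.46 in PBS and 3.34 in ADR. No peak was counted in either list for 8 genes, against 38.5% of all coding genes: *Rab3c*, *Rab9*, *Rab9b*, *Rab18*, *Rab27b*, *Rab37*, *Rab39* and *Rab39b*.

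For 4 of these 8 genes the absence held only for the gene start itself. When any annotated transcript start was used, *Rab18* had a peak with a fold of 16.4 in PBS and 14.8 in ADR, *Rab27b* a peak of 7.29 and 7.96, *Rab37* 3 peaks in each list, and *Rab9* 1 peak in the ADR list. *Rab3c*, *Rab9b*, *Rab39* and *Rab39b* had none at any annotated start.

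The summits gathered at the gene starts, as at coding genes in general. A summit lay within 1 kb of the start of 44 Rab genes in PBS and 43 in ADR, where the shares of all coding genes were 47.6% and 44.7%. Rab genes had peaks more often, so genes with a peak are the closer comparison. Of these, the counts were 44 of 52 beside 10449 of 12901 in PBS, and 43 of 52 beside 9820 of 12258 in ADR. Of all PBS peaks near the Rab genes, 66 of 104, or 63.5% (53.9 to 72.1%), had the summit in a promoter, taken as 1 kb upstream to 100 bp downstream of any transcript start, beside 58.9% of PBS peaks near all coding genes. In the ADR list the share was 63 of 87, or 72.4% (62.2 to 80.7%), beside 59.0%. Introns held 25 of the PBS summits, beside 21.3% near all coding genes, and 16 of the ADR summits, beside 21.9%. A peak with a fold of at least 20 was found at 9 Rab genes in PBS, against 8.32% of all coding genes, and at 10 in ADR, against 8.45%. Of genes with a peak, these were 9 of 52 beside 1826 of 12901 in PBS, and 10 of 52 beside 1855 of 12258 in ADR. Among genes with a peak, the strongest fold had a median of 9.47 at Rab genes and 9.11 at all in PBS. In ADR these medians were 10.2 and 9.33.

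**Figure D1:**
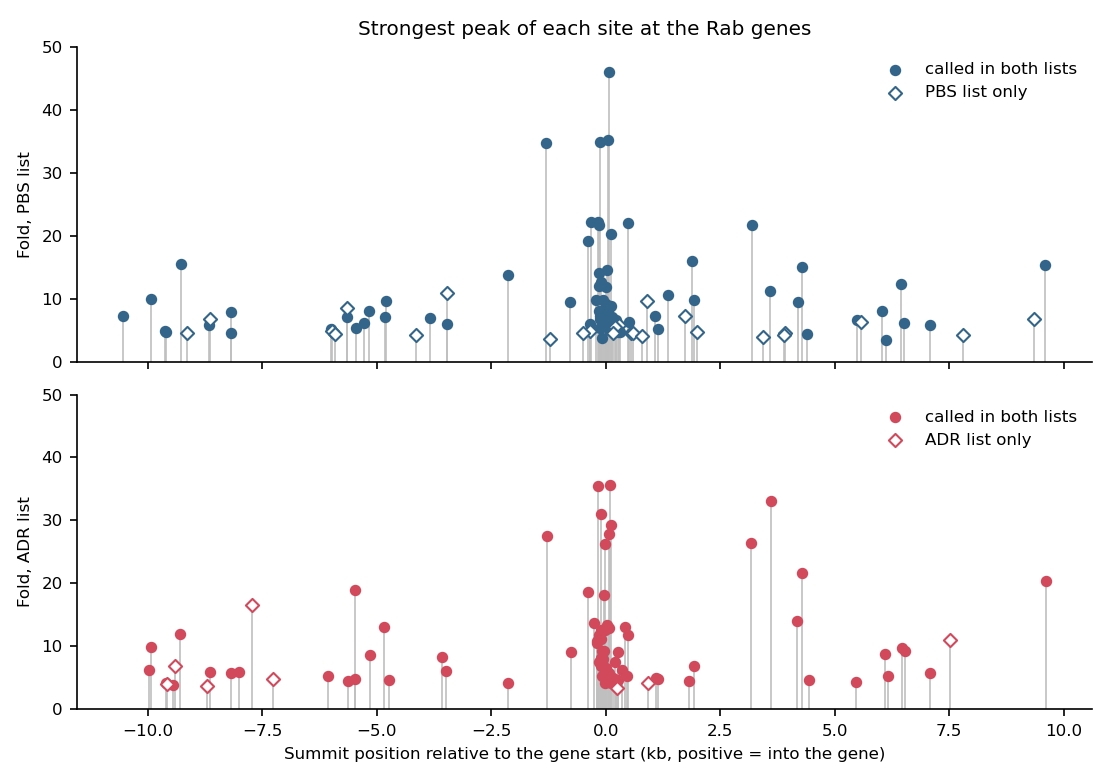
Fold over local control (vertical axis, linear) of the strongest peak of each site against the position of its summit relative to the Rab gene start in kb (horizontal axis), with PBS above and ADR below. Filled circles are sites called in both lists and open diamonds are sites of 1 list. The highest fold, 46.02 in PBS and 35.6 in ADR, lies at the start of *Rab3a*, and most of the open diamonds of the PBS list lie below a fold of 10.

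The Rab genes had 104 peaks in PBS and 87 in ADR, beside 18979 and 17133 near all coding genes, which also had fewer in ADR. The ADR list had more peaks at 6 genes, against 10.8% of all coding genes, fewer at 20 genes, against 18.7%, and the same number above 0 at 27 genes, against 32.0%. Rab genes had peaks more often than coding genes in general, so the genes with a peak in either list are the closer comparison. Of these, 6 of 53 Rab genes had more ADR peaks, or 11.3% (5.29 to 22.6%) beside 17.6% of all such genes, and 20 of 53 had fewer, or 37.7% (25.9 to 51.2%) beside 30.3%. Both intervals hold the share of all genes.

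The genes with more ADR peaks were *Rab3a* (8 against 6), *Rab5b* (3 against 2), *Rab10*, *Rab43* and *Rab3ip* (2 against 1 each) and *Rab1b* (1 against 0). With any annotated start *Rab1b* had 1 peak in each list. The extra ADR peak of *Rab5b* lay nearest to the start of *Cdk2*, and by nearest coding start *Rab5b* had 1 peak in each list. Both ADR peaks of *Rab43* lay under 1 wider PBS peak, so its extra peak was no new site. With overlapping peaks joined and counted once per list, 5 genes had more in ADR and 19 fewer. The largest decrease was at *Rab20*, which encodes a Rab of early endosomes and phagosomes and had 5 PBS peaks and 2 ADR peaks. *Rab17*, which acts in epithelial transcytosis, and *Rab19* had 4 and 2 each. Both ADR peaks of *Rab19* lay nearest to the start of *Slc37a3*, and by nearest coding start *Rab19* had 2 and 0. The remaining 17 genes with fewer ADR peaks differed by 1 peak. Peaks were most numerous at *Rab3a* and at *Rab34*, a Rab of late endosomes and ciliogenesis with 6 PBS and 5 ADR peaks. By nearest coding start *Rab34* had 3 PBS and 2 ADR peaks. The difference at *Rab34* came from a shared site with 2 PBS peaks and 1 ADR peak.

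**Figure D2:**
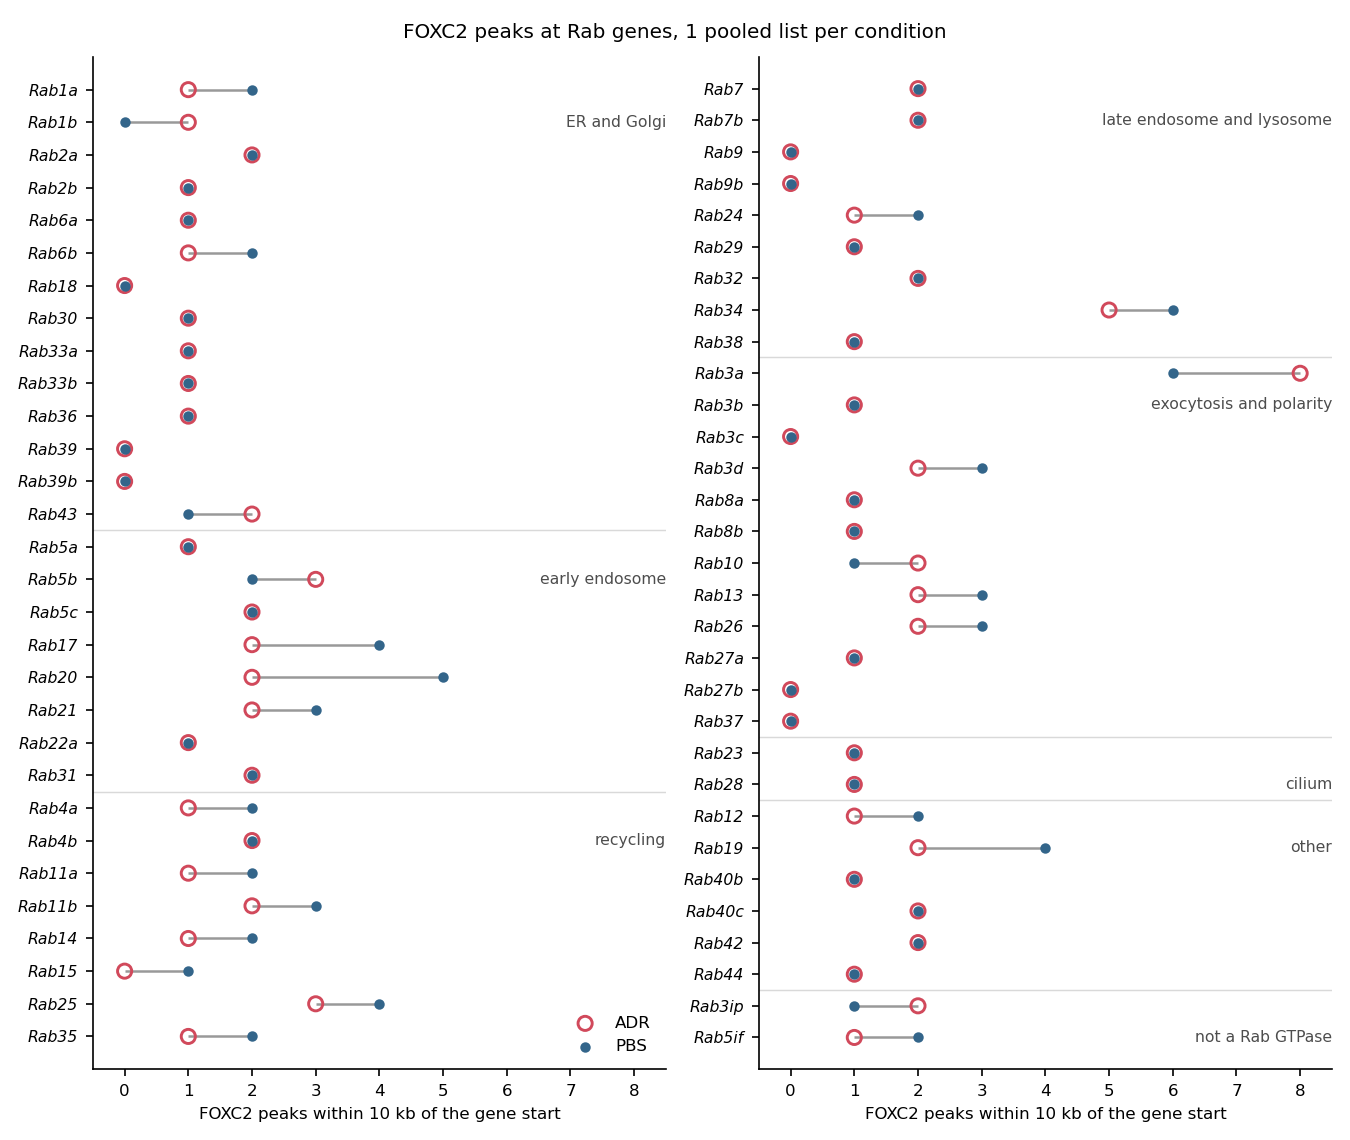
Peak number in the 10 kb windows (horizontal axis) for each of the 61 genes (vertical axis), grouped by the compartment of the encoded Rab. Filled points are the PBS list and open circles the ADR list, each 1 pooled list without error bars, and a line joins values that differ. *Rab3a* has the most peaks, with 6 and 8, and the values of most genes with a peak differ by 1 peak or not at all.

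Joined across the lists, the peaks formed 111 sites. Of these, 78 were called in both lists, or 70.3% (61.2 to 78.0%), beside 63.4% of the 21624 sites near all coding genes. Another 25 were called in the PBS list alone, or 22.5% (15.7 to 31.1%) beside 22.1%. The ADR list alone gave 8 sites, or 7.21% (3.70 to 13.6%) beside 14.5%. The interval of the ADR-only share lies below the share of all genes. The number of such sites depended on how overlap was defined and was 16 when summits within 200 bp were required. That rule also raised the PBS-only sites to 33, and the share near all coding genes was not computed under it. The 16 sites can therefore not be set against the 14.5%.

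Near the Rabs, sites of a single list were mostly weak. Of the 25 PBS-only sites, 16 had a fold under 5, against 54.6% of all such sites near coding genes, and 6 of these shared a fold of 4.46. The median fold was 4.46 at these sites and 4.98 at all. The strongest were a site 3457 bp upstream of *Rab26*, a secretory granule Rab, at a fold of 10.9, an intronic site of *Rab5if* at 9.62, and a site 5655 bp upstream of *Rab17* at 8.59. Of the 8 ADR-only sites, 5 had a fold under 5, against 40.4%, with a median of 4.53 beside 5.30 at all. The strongest lay 7727 bp upstream of *Rab3a* with a fold of 16.6 and a forkhead match, and the next in the intron of *Rab7*, 7521 bp from the start, with a fold of 11.0 and a WT1 match. *Rab7* encodes the central Rab of late endosomes and lysosomes. A site of *Rab7* 5580 bp from the start was called in PBS alone, with a fold of 6.27, so the gene had 2 peaks in each list of which only the promoter peak was shared.

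At the 78 shared sites the folds were balanced. The ADR fold was higher at 36, against 47.9% of all such sites near coding genes, and the median log2 difference, ADR minus PBS, was -0.04 at the Rab sites and -0.03 at all 13700 sites. The ADR fold was at least 2 times the PBS fold at 5 sites, against 6.72%, and at most 1 in 2 of it at 3 sites, against 5.55%. At the promoters, among the 41 Rab genes with a summit within 1 kb of the start in both lists, the ADR fold was higher at 18, against 45.3% of all such genes. These counts and medians lay close to those of all coding genes, and the larger differences lay at single sites.

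**Figure D3:**
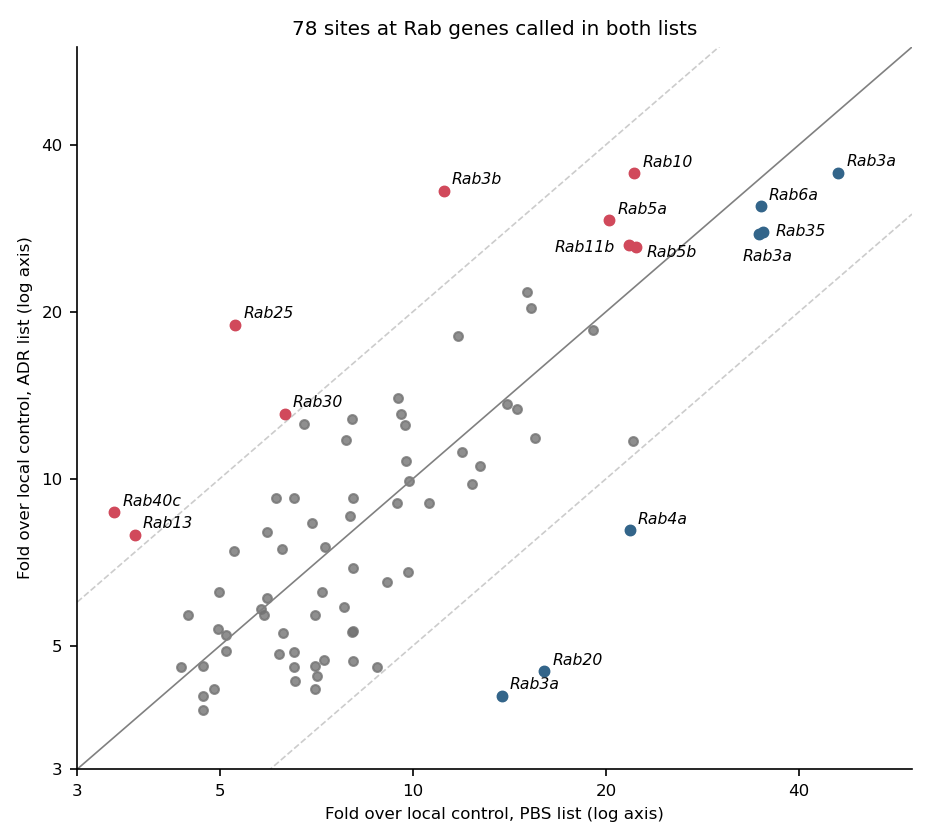
Fold in the ADR list (vertical axis) against fold in the PBS list (horizontal axis), both on log axes, for the 78 sites at Rab genes called in both lists. The solid line marks equal folds and the dashed lines a 2-fold difference, and named sites have a fold of at least 25 in either list (red where ADR is higher, blue where PBS is higher) or differ by at least 2-fold. The points scatter around equality, with *Rab3b* and *Rab25* farthest above it and *Rab20*, *Rab3a* and *Rab4a* below.

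The 12 Rabs of exocytosis and polarity had 20 peaks in each list, at 9 genes. RAB3 proteins tether secretory vesicles for regulated release, and *Rab3b* is among the genes that the study treats as characteristic of podocytes. *Rab3b* had no summit within 1 kb of its start in either list. Its single site within 10 kb, 3611 bp into the first part of the gene, had a fold of 11.2 in PBS and 33.1 in ADR, a log2 difference of 1.57. Only 1 of the 78 shared sites, in the window of *Rab25*, had a larger difference in favour of ADR.

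Farther into the same gene the pattern recurred. The site at 15961 bp had folds of 13.0 in PBS and 31.8 in ADR, that at 23515 bp 10.03 and 31.9, and that at 26992 bp 11.9 and 26.0. The log2 differences were 1.29, 1.67 and 1.12. The site at 25138 bp had a smaller difference, with folds of 17.2 and 19.96. All 5 sites were thus called in both lists, all had the higher fold in ADR, and a weak ADR-only site at 19030 bp had a fold of 4.50. Sites of 1 gene share their surroundings and are not 5 independent observations.

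*Rab3a* was the opposite case, with the most peaks and the highest fold of the family within 10 kb. The site at its start had a fold of 46.02 in PBS and 35.6 in ADR, and the intergenic site 1296 bp upstream 34.7 and 27.6. The site 2140 bp upstream, which holds a forkhead match, differed more, at 13.8 and 4.07, a log2 difference of -1.76. The site 7727 bp upstream was called in the ADR list alone. Beyond the window, a site 12304 bp upstream had folds of 10.4 and 22.9, and its neighbour 11157 bp upstream 22.5 and 9.74, so adjacent sites of *Rab3a* differed in opposite directions. Just outside the window limit lay a weak *Rab3a* site at 10202 bp, with folds of 4.55 and 3.68. *Rab3d* had 3 PBS and 2 ADR peaks, and *Rab3c* none.

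**Figure D4:**
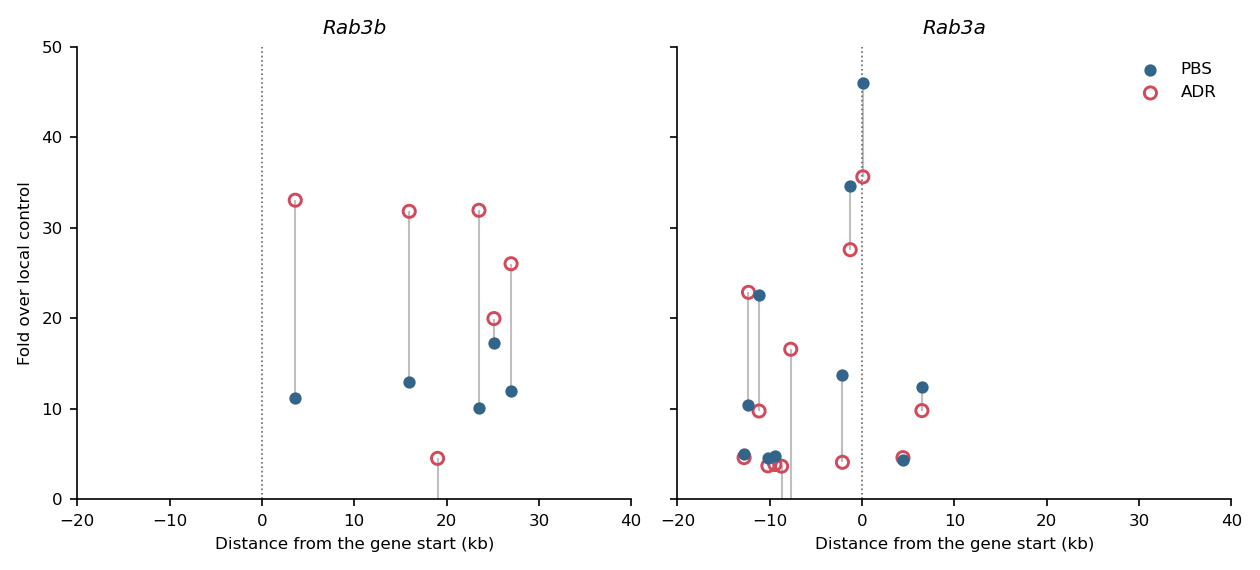
Fold over local control (vertical axis) of every site within 50 kb of *Rab3b* (left) and *Rab3a* (right) that is within 10 kb of the start or has this gene's start as its nearest coding start, against the distance from the start in kb (horizontal axis, positive into the gene). Filled points are the PBS list, open circles the ADR list, and lines join values of a site or drop to 0 where 1 list has no peak. At *Rab3b* the open circles lie above the filled points at all 5 shared sites, and at *Rab3a* both orders occur.

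*Rab10*, which acts in exocytosis and in the delivery of glucose transporter vesicles, had a promoter site with folds of 22.1 in PBS and 35.5 in ADR. *Rab26* had the reverse, 22.01 and 11.7. *Rab8a*, the textbook Rab of transport from the Golgi to the surface, had a promoter site with nearly equal folds of 14.0 and 13.6. The only site of *Rab27a*, which docks secretory granules, was at 7.98 and 8.58, and the coding start nearest to it was that of *Pigb*. *Rab13*, a Rab of tight junctions, had a promoter site at 3.69 and 7.94, where the start of *Rps27* was nearer.

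Among the 14 Rabs of the ER and Golgi, 11 had a peak in the ADR list and 10 in the PBS list, with 13 peaks in each. *Rab6a*, which serves retrograde transport to and within the Golgi, had the strongest site of this group within 10 kb at its promoter, with folds of 34.9 and 31.0. The promoter of *Rab1a*, the general Rab of ER to Golgi transport, had 19.1 and 18.6. *Rab30*, a Golgi Rab, had a promoter site at 6.31 and 13.1, a log2 difference of 1.05, with summits at different places. At the 11 sites of this group called in both lists the ADR fold was higher at 3, against 47.9% of all shared sites near coding genes. The number of sites is small.

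All 8 Rabs of early endosomes had a peak in both lists, with 20 PBS and 15 ADR peaks. The RAB5 proteins drive fusion of early endosomes, and each of their promoters had a higher fold in ADR: *Rab5a* 20.2 and 29.2, *Rab5b* 22.3 and 26.2, and *Rab5c* 7.86 and 11.8. These log2 differences, 0.53, 0.24 and 0.58, were small beside those of *Rab3b*. *Rab20* showed the largest difference of the opposite sign among the 78 sites. Its intronic site, 1884 bp from the start, had folds of 16.02 and 4.51, a log2 difference of -1.83, its other shared site 6.56 and 4.33, and 3 further sites were called in the PBS list alone, at folds of 4.18 to 6.78.

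The 8 Rabs of recycling return receptors from endosomes to the surface, and 7 of them had fewer ADR than PBS peaks: *Rab4a*, *Rab11a*, *Rab11b*, *Rab14*, *Rab15*, *Rab25* and *Rab35*. Fewer ADR peaks were found at 18.7% of all coding genes and at 30.3% of those with a peak in either list, and a group of 8 genes is small. *Rab4b* had 2 peaks in each list. The group had 18 PBS and 11 ADR peaks, no ADR-only site and 7 PBS-only sites. The difference rested on weak peaks, since with peaks of a fold of at least 5 1 gene had fewer ADR peaks, with 12 PBS and 11 ADR peaks. At that limit 14.7% of all coding genes had fewer ADR peaks. At the 11 shared sites of the group the ADR fold was higher at 8, against 47.9% of all shared sites, with a median log2 difference of 0.25. Of these 8, 3 lay in the window of *Rab25* but nearest to the start of *Ubqln4* or *Lamtor2*, and at the 8 sites nearest to their own Rab the ADR fold was higher at 5, with a median of 0.15.

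Within the recycling group *Rab4a*, a Rab of fast recycling, had the clearest lower value, with a promoter site at 21.8 in PBS and 8.09 in ADR, a log2 difference of -1.43. The promoter of *Rab35*, which acts in recycling and in actin control, was at 35.2 and 27.9 and held forkhead and WT1 matches. *Rab11b*, a Rab of the slower recycling endosome, had its strongest site in the intron, at 21.8 and 26.4, and its promoter at 7.30 and 7.55. The promoter of *Rab11a* was at 6.26 and 7.47. *Rab4b* had 15.04 and 21.7 at its stronger site. The largest log2 difference of all 78 sites, 1.84, belonged to a site in the window of *Rab25*, the epithelial relative of *Rab11a*, with folds of 5.28 and 19.0, but this site lay at the start of *Ubqln4*.

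The 9 Rabs of late endosomes and lysosomes had 16 PBS and 14 ADR peaks, with a peak in both lists at 7 genes. The promoter of *Rab7* was at 8.07 and 9.25. *Rab38*, which serves lysosome-related organelles, had a promoter site at 11.8 and 18.1, and its relative *Rab32* one at 7.04 and 5.69. At the 13 shared sites of the group, also a small number, the ADR fold was higher at 3, against 47.9% of all shared sites. The cilium Rabs *Rab23*, a regulator of Hedgehog signalling, and *Rab28* each had 1 shared site, at 7.04 and 4.18 and at 5.92 and 8.02. Of the other Rabs, *Rab44* had an intronic site at 15.3 and 20.3, *Rab40b* a promoter site at 6.77 and 12.6, and *Rab40c* a site 6132 bp from the start at 3.43 and 8.70. *Rab3ip* and *Rab5if* had promoter sites at 4.98 and 6.26 and at 9.77 and 10.8.

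Between 10 and 50 kb from their starts, 26 Rab genes had 53 further sites to which they were the nearest coding gene. Of these, 28 were called in both lists, 13 in ADR alone and 12 in PBS alone, where these classes held 42.2%, 28.7% and 29.1% of the 15927 such sites of all coding genes. Of the 28, the ADR fold was higher at 15, against 56.6% of all, at least 2 times the PBS fold at 9, against 18.1%, and at most 1 in 2 of it at 4, against 8.30%. *Rab3b* alone gave 3 of the 9, so the count leans on 1 gene.

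The strongest distal sites differed in either direction. In the intron of *Rab32*, 11433 bp from the start, the fold was 47.6 in PBS and 19.6 in ADR. The intergenic site 25199 bp upstream of *Rab2a*, a Rab of ER to Golgi transport, was at 44.8 and 6.51, a log2 difference of -2.78, while the *Rab2a* sites at its start were weak in both lists, at 6.27 or less. *Rab30* had distal intronic sites at 9.83 and 26.2 and at 7.86 and 30.6, both higher in ADR, like its promoter site. *Rab7* had an intronic site 17696 bp from the start at 15.5 and 30.8. *Rab44* had a site 20343 bp from its start at 4.55 and 24.98. The distal site of *Rab6a*, 16455 bp upstream, was at 38.8 and 29.9.

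Not every peak near a Rab gene was closest to it. The nearest coding start was that of a Rab gene for 84 of 104 PBS peaks and 68 of 87 ADR peaks, and 18 of the 61 windows held the start of another coding gene. When each peak was given to its nearest coding start only, 7 recycling genes had fewer ADR peaks, against 16.2% of all coding genes. *Rab3b*, *Rab4a* and *Rab20* kept their values, since all their peaks lay nearest to their own starts.

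WT1 strings were the most frequent at the Rab peaks of the motifs searched. A WT1 string lay within 100 bp of the summit of 37 of 104 PBS peaks, or 35.6% (27.0 to 45.1%) beside 29.8% of all PBS peaks near coding genes, and of 33 of 87 ADR peaks, or 37.9% (28.5 to 48.4%) beside 30.9%. Among promoter peaks alone it was 28 of 66 in PBS, or 42.4% (31.2 to 54.4%), an interval above the 29.9% of all PBS promoter peaks. The ADR promoter peaks gave 26 of 63, or 41.3% (29.96 to 53.6%), an interval that holds the 31.1% of all. Windows of the same length 1 kb to either side of the Rab peaks held one in 7.21% and 5.17%, beside 7.31% and 7.04% around all peaks near coding genes. A forkhead string occurred at 10 PBS peaks, or 9.62% (5.31 to 16.8%) beside 13.0% of all. In ADR it was 11 peaks, or 12.6% (7.21 to 21.2%) beside 15.2%. The flanking windows of the Rab peaks held one more often, at 27.9% and 28.2%. The same order held around all peaks near coding genes, whose flanking windows held a forkhead string in 25.8% and 26.7%. The median GC content around the summit was 60.9% in PBS and 64.2% in ADR, beside 60.7% and 61.2% for all peaks near coding genes.

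Sites with a forkhead string were few and included several strong ones. The median fold was 17.8 at the 10 PBS sites with a match and 6.78 at the 93 without, and 16.6 at 11 and 6.92 at 75 in ADR. They included the promoters of *Rab35*, *Rab5a*, *Rab5b* and *Rab26* and the upstream sites of *Rab3a* printed above. Sites with a WT1 string had median folds of 9.58 in PBS and 10.2 in ADR, and those without 6.54 and 5.85. Neither comparison of folds was made for peaks near all coding genes, so a trait of Rab sites cannot be told from one of FOXC2 peaks in general. TEAD strings occurred at 4 peaks of each list, where 4.91% of PBS and 5.47% of ADR peaks near all coding genes held one, and AP-1 strings at 2 of each, against 5.62% and 2.92%. The LMX1B string occurred at none, against 0.753% and 1.61%, which leaves a share of up to 3.56% in PBS and 4.23% in ADR by the Wilson interval.

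**Figure D5:**
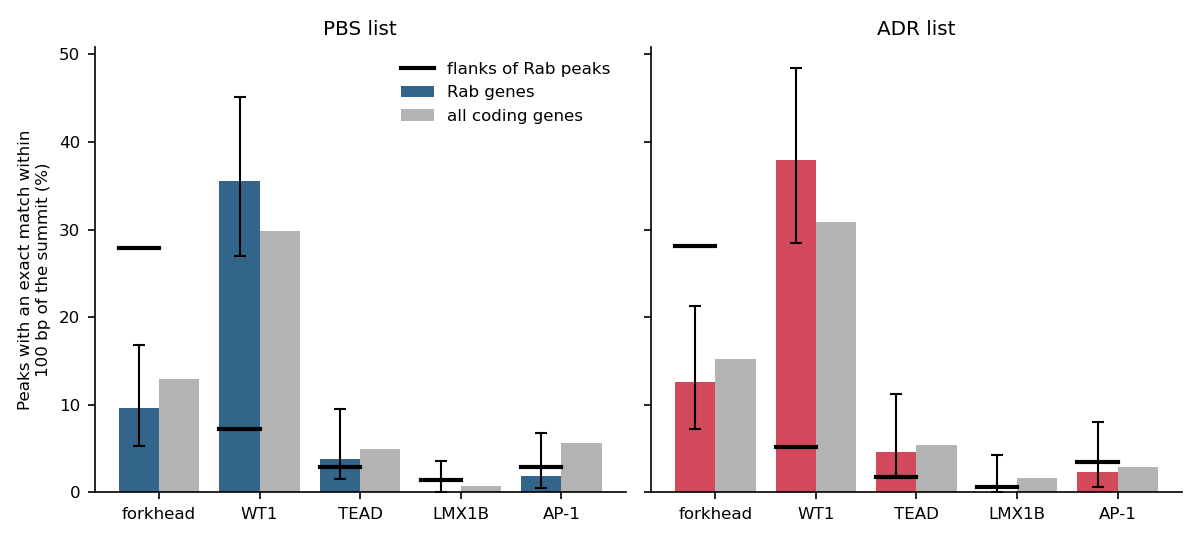
Share of peaks with an exact motif match within 100 bp of the summit, in percent (vertical axis), for 5 motifs (horizontal axis) in the PBS list (left) and the ADR list (right). Coloured bars are peaks at Rab genes with 95% Wilson intervals, grey bars are peaks near all coding genes, and black lines are windows 1 kb to either side of the Rab peaks. WT1 matches exceed their flanks (35.6% against 7.21% in PBS), forkhead matches lie below theirs (9.62% against 27.9%), and the grey bars lie within the intervals for all 5 motifs. Peaks near all coding genes show both orders against their own flanks, which are not drawn (WT1 29.8% against 7.31%, forkhead 13.0% against 25.8% in PBS).

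The genes that control the Rabs had peaks about as often as the Rabs. Of 120 other genes of the pathway, 100 had a PBS peak and 100 an ADR peak, or 83.3% each against 58.8% and 55.8% of all coding genes, with 179 and 161 peaks. The ADR list had more peaks at 17, against 10.8% of all coding genes, and fewer at 26, against 18.7%. The number was the same above 0 at 61, against 32.0%, and 16 had no peak in either list, against 38.5%. Pathway genes had peaks more often than coding genes in general, so genes with a peak in either list are again the closer comparison. Of all such coding genes, 17.6% had more ADR peaks, 30.3% fewer and 52.1% the same number. Exchange factors had peaks at 28 of 31 genes in each list, GTPase-activating proteins at 31 of 36, effectors at 35 of 46 in PBS and 36 in ADR, and chaperones and prenylation enzymes at 7 and 6 of 8. The 31 exchange factors include *Rab3ip*, which belongs to the family and is left out of the 120. *Dennd4c*, an exchange factor for RAB10, had the highest fold of the list, 51.2 in PBS and 35.3 in ADR, and *Tbc1d4*, a GTPase-activating protein for RAB10, had 27.4 and 31.7. The largest decrease in number was at *Rab11fip5*, an effector of RAB11, with 7 PBS and 2 ADR peaks and strongest folds of 18.1 and 4.02. *Rab3il1*, an exchange factor, had 9.36 and 24.2, and *Rin3*, an exchange factor for RAB5, 25.4 and 10.02 with 5 and 2 peaks.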

How the data were processed

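FOXC2 ChIP-seq of FACS-sorted podocytes was analysed from 1 pooled list a condition, each made from 3 samples. The authors trimmed and aligned the reads to GRCm38, called narrow peaks with nf-core/chipseq and pooled the replicates. The version and threshold of the caller are not given in the sources used here. The deposited columns hold a score, a fold ratio over the local control, −log10 of the p-value and −log10 of the q-value. The score and p columns were not used. The depth of the lists is unknown.

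Gene starts, one per gene record, came from GENCODE M21. The window was 10 kb on each side, as in the study. Summits were assigned in the order promoter, transcript end, exon, intron, intergenic. The share of all 21951 coding genes, or of all peaks or sites within 10 kb of a coding gene, is given beside the main counts. Distal sites lay 10 to 50 kb from a Rab start that was their nearest coding start. Python 3.11.15, pandas 2.3.3, NumPy 2.4.6, SciPy 1.17.1 and matplotlib 3.10.9 were used, and the counting was tested on simulated peaks.

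The members, their roles and the pathway and marker lists were chosen with earlier results of these data known. Genes described in detail were the Rab3 genes, the genes with the most peaks, the largest changes in number or the strongest peaks, markers of a compartment (*Rab1a*, *Rab5a*, *Rab7*, *Rab8a*, *Rab11a* and *Rab27a*), and genes without peaks. Other genes were named after their values were seen. Of the podocyte markers, 9 are reported here. Alternatives were the nearest start, any annotated start, 5 or 50 kb windows, stricter peaks (fold or −log10 q of at least 5, the 20000 smallest q), motifs within 50 bp, promoters reaching 1 kb to each side, 50% overlap and summits no more than 200 bp apart. Stricter peaks for the recycling and early endosome groups, the recycling sites by nearest start, and folds by motif, were added after seeing the data.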

Additional observations from a re-analysis of the deposited data

How the results depend on the processing

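No paired analysis was possible because each condition had 1 pooled list, and for the same reason no replicate could be left out. Of 89 values over the family recomputed under an alternative, 75 stayed close to the value given and 14 moved. Genes with more ADR peaks numbered 3 with a 5 kb window and 10 with 50 kb, against 8.05% and 20.9% of all coding genes. ADR-only sites numbered 2 with 5 kb, 42 with 50 kb, 17 with any annotated start, 5 when −log10 q was at least 5, and 16 each with 50% overlap or summits within 200 bp. The 50 kb window gave 82 PBS-only and 205 shared sites. The shares of all sites near coding genes were not computed under these settings. With the 20000 smallest q, shared sites fell to 36 and their median log2 difference was 0.17. The promoter share in PBS was 74.0% with 1 kb on each side, and the forkhead share in ADR 6.90% within 50 bp. For single named genes the difference in peak number, ADR minus PBS, was recomputed as 259 further values, of which 61 moved and 4 changed sign. It changed sign at *Rab1b* (-5 with 50 kb), *Rab3a* (-1 when −log10 q was at least 5) and *Rab13* (1 with a fold of at least 5 and 1 with the smallest q). Outside these tallies, recycling genes with fewer ADR peaks numbered 1 for folds of at least 5, 3 for the same limit on −log10 q, and 1 for the smallest q. In the early endosome group these counts were 3, 2 and 3, beside 3 with all peaks. Of all coding genes, 14.7%, 16.3% and 15.2% had fewer ADR peaks under these limits, in the same order. Shorter or wider windows and stricter peaks change which peaks enter, and beyond that the cause was not tested.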
